A study of Macaca fascicularis with 44 samples.

Results

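The 252 genes described here were expressed in primary brain endothelial cells (BECs) of the cynomolgus monkey at a high level after the first 7 days in culture, at a low level in the freshly isolated microvessels, and at a reduced level again once the cells had been re-plated. They were chosen by their mean FPKM (fragments per unit of gene length and of library size) in cortex, out of 28623 gene identifiers. The mean after 7 days had to be at least 2 FPKM and at least 4 times the mean of the isolated microvessels, and the mean after re-plating had to be at most 50% of the mean at 7 days. Of the 10328 genes with at least 2 FPKM at 7 days, 752 also met the 4-fold condition, and 252 of these met the last one. All measures of the cortical libraries are therefore given as a description with no test, and tests were made only in libraries of other brain structures, which the choice did not use. These libraries come, however, from the same 8 preparations as the cortical libraries at 7 days that set the choice.

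RNA was sequenced in 44 libraries from male and female animals that had become available after pre-clinical studies. Microvessels were obtained from each of 5 brain structures by enzymatic digestion and gradient centrifugation, and those of cortex were sequenced as isolated (P0D0, 8 libraries). Microvessels of each structure were then grown for 7 days (P0D7) on coated plastic in supplemented endothelial medium. Puromycin was the selecting agent, at a concentration that was lowered and later brought to none. The P0D7 cultures gave 8 cortical, 6 brainstem, 7 hippocampus, 7 striatum and 2 cerebellum libraries. Cortical cells alone were detached and re-plated for another 7 days (P1D7, 6 libraries). The study places the puromycin selection in the first culture. Its part in a difference between P0D7 and P1D7 cannot be told apart from that of re-plating. No group carried a genetic change or a disease, and the isolated fraction is known to hold RNA of pericytes, glia and blood cells beside that of BECs. In such bulk samples fewer cells of a type and less RNA per cell cannot be told apart. The labels carry 10 codes, BBB and a number, read here as preparations. They do not say whether the libraries of a group come from separate animals, so that a p-value speaks only for the spread of the libraries at hand, which may be technical.

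In the brain, the endothelium of small vessels is a largely quiescent cell layer that is held in a barrier state by pericytes, astrocytes and flow. Isolation removes these neighbours, and plated cells attach, spread and divide in a medium rich in growth factors until they meet each other. Dissociation and re-plating then start this sequence again in a cell population that has already adapted to culture. The comparison of the 3 cortical fractions asks which genes peak in the first of these cultures. The files name genes by Ensembl identifier only, and of the 28623 identifiers 0 could be paired with a symbol in the reference table used here. Known functions, marker genes of the labelled cell type and sequences of the members were therefore not analysed here, and 4 members are named by identifier.

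The members covered a wide range of levels. Their mean at P0D7 ran from 2.11 to 2668 FPKM with a median of 11.3 FPKM, and 135 members reached 10 FPKM and 16 reached 100 FPKM. Together they took 0.105% to 0.123% of all counts in the P0D0 libraries, 0.710% to 2.09% in the cortical P0D7 libraries and 0.305% to 0.437% in the P1D7 libraries. The 3 ranges did not overlap, a separation that the choice of the members by these same libraries favoured. The mean at P0D7 was 11.3 times that at P0D0 in the median member (quartiles 6.35 and 25.7), and 91 members had a ratio of at least 16. Towards P1D7 the ratios were more uniform, with a median of 3.78 (quartiles 3.04 and 4.54) and only 13 members at 8 or more.

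After re-plating most members stayed above the level of the isolated microvessels. The mean at P1D7 lay above that at P0D0 in 243 of the 252 members and below it in 9, with a median ratio of 2.83. It was at least 2 times the P0D0 mean in 174 members and at least 4 times in 93. A low P0D0 mean was a condition of the choice, which favoured these counts, and the same counts over all genes were not made. At the borders of the choice, the lowest member reached 2.11 FPKM at P0D7 and the highest gene outside 1.97 FPKM. The ratio to P0D0 was 4.01 in the last member inside and 3.91 in the first gene outside, and the P1D7 mean was 49.8% and 50.04% of the P0D7 mean. The genes that failed a single condition numbered 674 for the level, 496 for the ratio to P0D0 and 500 for P1D7.

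**Figure D1:**
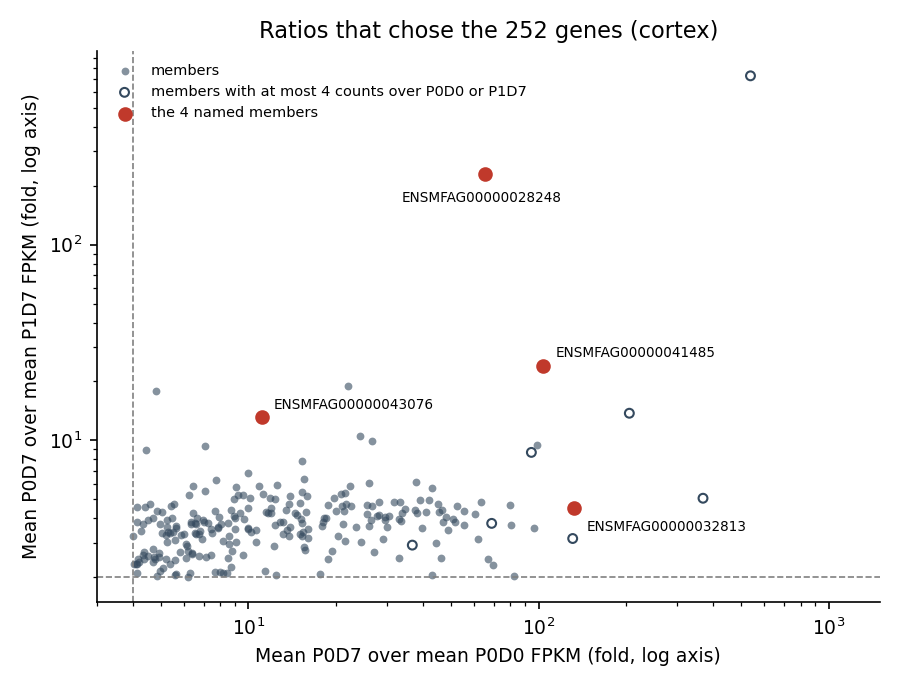
Ratio of mean P0D7 to mean P0D0 FPKM (x, log axis) and to mean P1D7 FPKM (y, log axis) in cortex for the 252 genes, with dashed lines at the limits of 4 and 2. Open circles have at most 4 counts over all P0D0 or all P1D7 libraries, so their ratios rest on very few reads. Most members lie in a narrow band between 2 and 8 on the y axis and spread widely along the x axis.

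The members varied more between libraries of a group than most genes. For 157 of the 252 members (62.3%) the lowest cortical P0D7 library lay above the highest library of both other fractions, against 4.83% of all genes with at least 2 FPKM at P0D7, a contrast that the choice itself fixed. The P0D7 libraries stood clear of all P0D0 libraries in 221 members (28.9% of all genes) and of all P1D7 libraries in 161 (9.96% of all genes). The remaining overlap was mainly with P1D7, for which the choice asked for a smaller gap than for P0D0. Over all genes, too, more stood clear of P0D0 than of P1D7. The coefficient of variation over the 8 cortical P0D7 libraries was 55.6% in the median member and 19.9% in the median expressed gene. It was 43.2% against 22.7% at P0D0 and 42.2% against 11.5% at P1D7, so members spread more than the median gene in these fractions too. The compared genes were not matched for level, and at P0D0 the median member had a mean of only 0.853 FPKM. The part of low counts in this spread was not tested. Outside cortex, in libraries that played no part in the choice, it was 83.3% against 19.8% in brainstem, 57.8% against 17.0% in hippocampus and 63.3% against 18.2% in striatum. These libraries share their preparations with the cortical ones. In brainstem a single library, replicate 6 from BBB032, was the highest for 214 members, and its part in the spread was not tested.

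To follow the members together, each was expressed in percent of its own mean over the cortical P0D7 libraries, and the median over the 252 members was taken per library. This median was 7.13% to 9.03% in the 8 P0D0 libraries, where this median, unlike single members, hardly differed. In the cortical P0D7 libraries, replicates 1 to 8, it was 52.9%, 68.1%, 113%, 54.0%, 95.2%, 182%, 54.0% and 166%. Replicates 6 and 8 stood far above the others, and replicate 6 was the highest library for 166 members and replicate 8 for 51. In the 6 P1D7 libraries, replicates 1 to 6, it was 34.6%, 9.42%, 29.2%, 22.3%, 30.5% and 28.0%. Replicate 2 of P1D7 was lowest for 186 members and sat close to the P0D0 libraries. The median over all expressed genes moved far less, from 65.6% to 88.2% in P0D0, 89.7% to 105% in cortical P0D7 and 85.4% to 88.6% in P1D7.

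**Figure D2:**
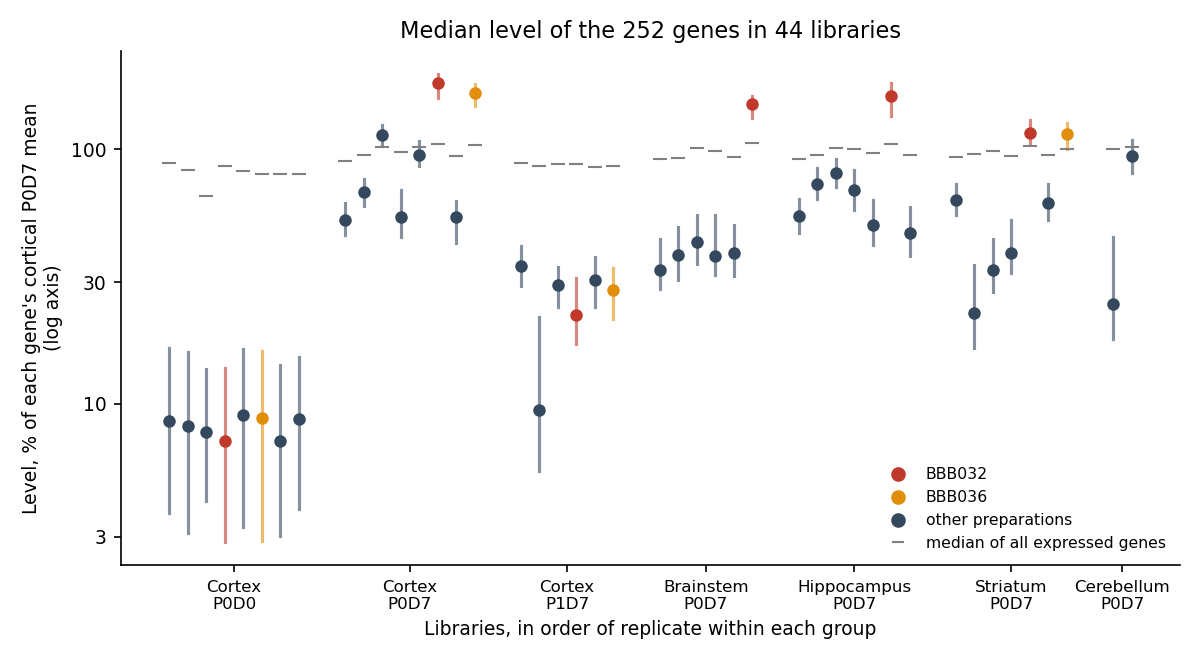
Median level of the 252 genes in each of the 44 libraries, in percent of each gene's cortical P0D7 mean (log axis), with bars from the lower to the upper quartile over genes and a grey dash at the median of all expressed genes. The P0D0 libraries sit at 7.13% to 9.03%, and the P0D7 libraries of preparations BBB032 (red) and BBB036 (orange) sit at 115% to 182%.

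The lower level after re-plating was found within each of the 6 preparations that had both cultures. The median P1D7 level was 30.7% of the P0D7 level of the same preparation in BBB029, 18.1% in BBB030, 30.5% in BBB031, 12.6% in BBB032, 56.6% in BBB035 and 16.8% in BBB036. Between 238 and 250 of the 252 members were lower at P1D7 in a given preparation, while the median expressed gene was at 83.1% to 90.4%. The choice used these same libraries and favoured this outcome, and the share of all genes that were lower was not counted. The preparations that were high at P0D7 were not the high ones at P1D7. BBB032 and BBB036 led the first culture with 182% and 166%, but their P1D7 libraries, at 22.3% and 28.0%, lay below those of BBB029, BBB031 and BBB035. Nor did they stand out in the isolated microvessels, where BBB032 was among the lowest libraries at 7.13% and BBB036 was at 8.80%.

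The most abundant member, with a length of 299 bp, was among those with little spread. It ranged from 42.0 to 120 FPKM at P0D0 (median 54.0 FPKM), from 1559 to 3531 FPKM at P0D7 (median 2708 FPKM) and from 830.0 to 2119 FPKM at P1D7 (median 1223 FPKM). Its P0D7 and P1D7 libraries overlapped, and its lowest library in the other structures still had 583 FPKM. The second most abundant member, of 296 bp, ranged from 32.4 to 178 FPKM at P0D0, from 337 to 2863 FPKM at P0D7 and from 93.5 to 240 FPKM at P1D7. It separated all P0D7 libraries of cortex from the rest, but it went down to 128 FPKM in brainstem and 75.0 FPKM in striatum, within its P0D0 range. Short genes were frequent among the members. Of the 251 with a usable length, 27 (10.8%) were under 500 bp, against 4.15% of all expressed genes, and 5 of the 10 most abundant members were among them. A length of 411 bp was shared by 7 members with 45.0 to 318 FPKM at P0D7, out of 15 expressed genes of this length. Whether these are near-identical copies that share reads was not tested, so their single values are uncertain.

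ENSMFAG00000032813 had the largest ratio to P0D0 among the members with at least 10 FPKM and 4 counts. Its FPKM at P0D0 ranged from 0.387 to 1.46 (median 0.720), at cortical P0D7 from 11.0 to 218 (median 87.6) and at P1D7 from 6.36 to 43.5 (median 25.9). The mean was 0.816 ± 0.362 (SD, n = 8) at P0D0, 108 ± 64.6 (SD, n = 8) at P0D7 and 23.8 ± 13.4 (SD, n = 6) at P1D7, a ratio of 132 and of 4.52. All P0D7 libraries lay above all P0D0 libraries, but the lowest of them, from BBB035, lay within the P1D7 range. The lowest library of hippocampus (28.9 FPKM) and P1D7 (6.36 FPKM) also came from BBB035, but those of brainstem (9.59 FPKM) and striatum (5.15 FPKM) came from BBB029.

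ENSMFAG00000041485 was second by the same ratio and was far lower after re-plating. It ranged from 0.0845 to 0.990 FPKM at P0D0 (median 0.510), from 5.33 to 120 FPKM at cortical P0D7 (median 43.6) and from 0.954 to 4.07 FPKM at P1D7 (median 1.87). The 3 fractions of cortex thus overlapped only between P0D0 and P1D7, where 1 re-plated library lay within the P0D0 range. The ratios of the means were 104 and 24.1. In brainstem, hippocampus and striatum it reached medians of 28.2, 99.99 and 60.3 FPKM, with single libraries from 2.54 to 202 FPKM.

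ENSMFAG00000028248 had the largest ratio of P0D7 to P1D7 among the eligible members. It ranged from 0 to 2.89 FPKM at P0D0 (median 1.70), from 11.7 to 242 FPKM at cortical P0D7 (median 74.2) and from 0.234 to 1.19 FPKM at P1D7 (median 0.347). The P0D7 libraries stood clear of both other fractions, and the P1D7 mean was below the P0D0 mean, at 0.458 ± 0.364 (SD, n = 6) against 1.60 ± 1.08 (SD, n = 8). The P0D7 mean was 228 times the P1D7 mean and 65.3 times the P0D0 mean. ENSMFAG00000043076 was next by this ratio after ENSMFAG00000041485, with 1.31 to 7.52 FPKM at P0D0 (median 4.71), 16.9 to 108 FPKM at cortical P0D7 (median 47.9) and 1.18 to 7.11 FPKM at P1D7 (median 3.44). Here P0D0 and P1D7 covered the same range, and the P0D7 libraries lay above both, by 11.1 and 13.1 times in the means.

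**Figure D3:**
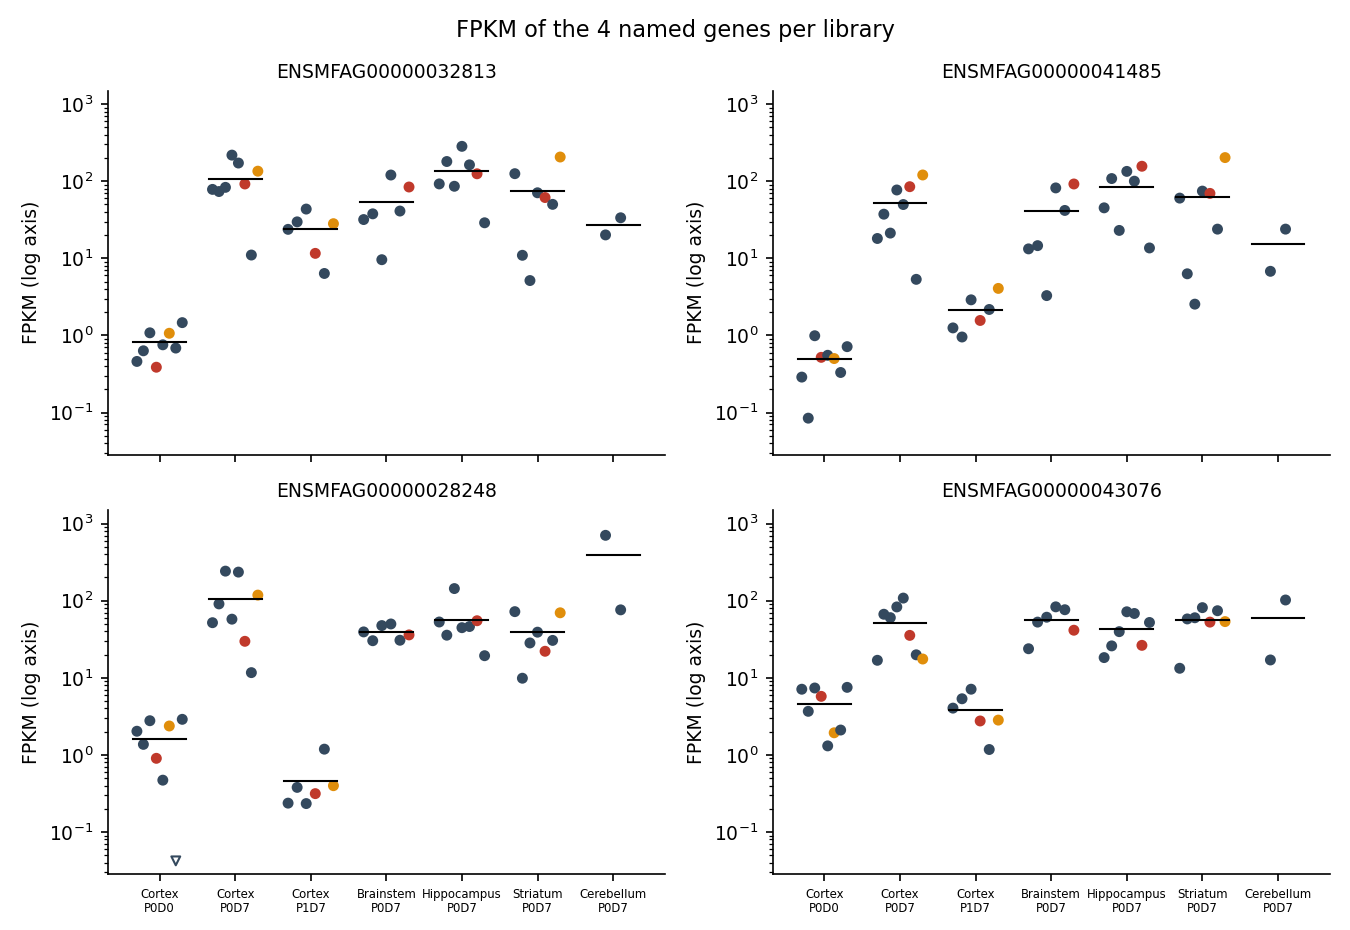
FPKM (log axis) of the 4 named genes in each library by group, with a line at the group mean, BBB032 in red, BBB036 in orange and an open triangle for a library at 0. All cortical P0D7 libraries lie above all P0D0 libraries in the 4 genes, and ENSMFAG00000028248 reaches 704 FPKM in 1 cerebellum library.

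Most members moved together across the P0D7 libraries. The correlation of each gene with the median profile of the members, on log2(FPKM + 0.1), is given as a description, since libraries share preparations and depth. The profile is built from the members themselves, which favours a higher r in members than in other genes. In addition, the cortical libraries chose the members, and the libraries outside cortex come from the same preparations. Over the 8 cortical P0D7 libraries the median member had r = 0.96, and 187 members (74.2%) had r of at least 0.8, against 18.2% of all expressed genes. Over the 22 P0D7 libraries of the other structures the median was r = 0.94, and 180 members (71.4%) reached 0.8, against 5.77% of all expressed genes. The same 175 members passed in both sets of libraries. The member closest to the profile outside cortex, a gene of 1633 bp singled out after its values were seen, had r = 0.99 there. It ranged from 1.32 to 2.89 FPKM at P0D0, from 45.6 to 214 FPKM at cortical P0D7 and from 4.16 to 36.8 FPKM at P1D7, with no overlap between the 3 fractions.

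A smaller set did not follow this profile. In cortex 34 members had r under 0.5, and the library in which they were highest varied, with 8 in replicate 8, 7 in replicate 4 and 5 each in replicates 2 and 5. Their median coefficient of variation was 72.3%. Of the 34, 11 stood clear of both other fractions, compared with 146 of the 218 members with a higher r and 4.83% of all genes. Both r and the overlap come from the cortical libraries that chose the members, so this contrast is a description only. The most abundant member belonged to this set with r = 0.21, as did 3 of the 4 named genes. ENSMFAG00000032813 and ENSMFAG00000028248 both had r = 0.32 and ENSMFAG00000043076 had r = -0.06, while ENSMFAG00000041485 had r = 0.60. In 7 members a single P0D7 library held over 50% of the sum of the 8 libraries, where an equal share would be 12.5%, so that their mean and their place among the members rest on that library.

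**Figure D4:**
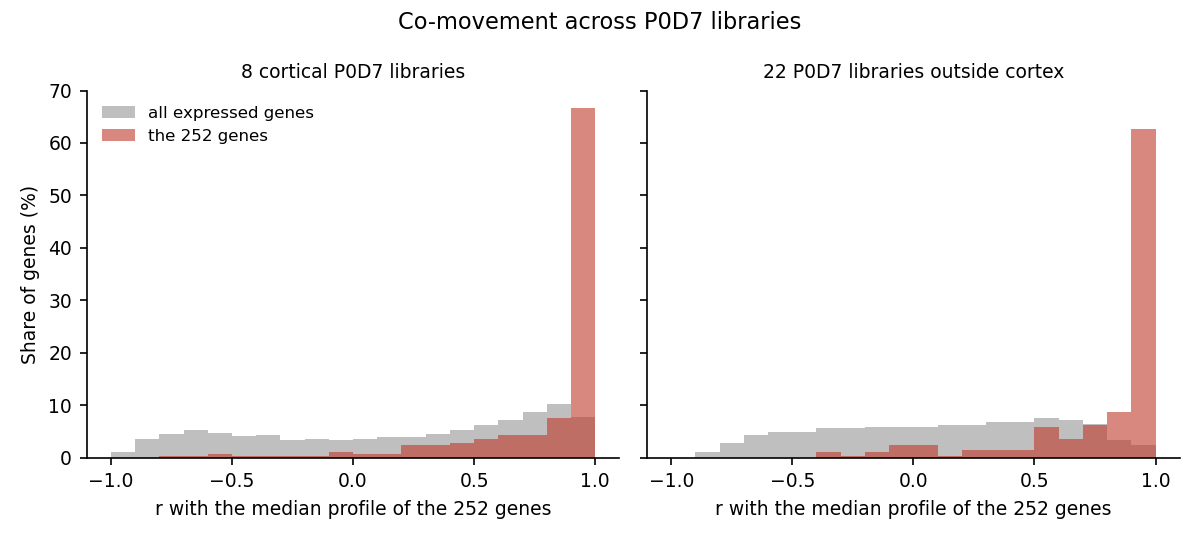
Share of genes by their correlation r with the median profile of the 252 genes, over 8 cortical P0D7 libraries (left) and 22 P0D7 libraries outside cortex (right), for the 252 genes (red) and all expressed genes (grey). The members pile up close to 1, with 187 and 180 of them at 0.8 or more, and a tail of members reaches below 0.

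BBB032 gave the highest library in each structure for which it had one. In brainstem, replicates 1 to 6, the median member level was 33.4%, 38.2%, 43.1%, 38.0%, 39.1% and 150%, and the last library, from BBB032, was highest for 214 members. In hippocampus, replicates 1 to 7, it was 54.5%, 72.9%, 80.6%, 69.2%, 50.4%, 162% and 46.6%, and replicate 6, again from BBB032, was highest for 209 members. In striatum, replicates 1 to 7, it was 63.3%, 22.7%, 33.4%, 39.2%, 116%, 61.2% and 115%, where replicate 5 was from BBB032 and replicate 7 from BBB036. Replicate 2 of striatum, from BBB028, was the lowest for 174 members, although the cortical, brainstem and hippocampal libraries of this preparation were not the lowest of their groups. The 2 cerebellum libraries stood apart, at 24.5% in replicate 1 (BBB029) and 93.8% in replicate 2 (BBB035). In cortex and hippocampus the deepest P0D7 library, replicate 6 in both with 23138726 and 24023026 counts, was also the highest, and the shallowest cortical P0D7 library, replicate 7 with 15513781 counts, was among the lowest. The deepest library of all, cerebellum replicate 1 with 24450445 counts, had 24.5%, and the shallowest of hippocampus, replicate 3 with 8633089 counts, had 80.6%, the second highest of its group. The part of depth in the level was not tested.

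**Figure D5:**
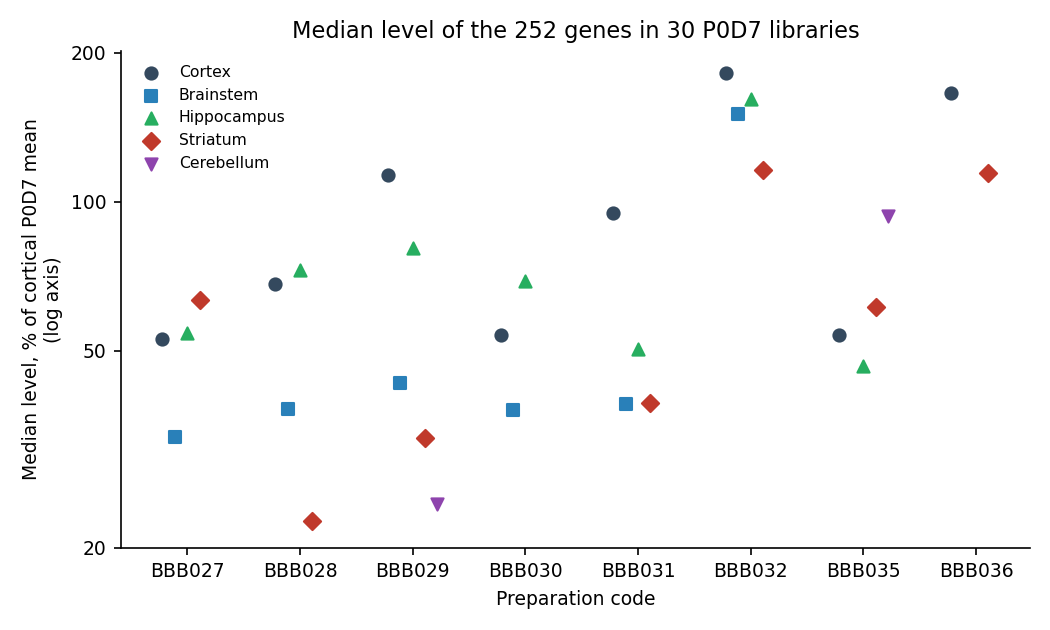
Median level of the 252 genes in the 30 P0D7 libraries by preparation code (x), in percent of the cortical P0D7 mean (y, log axis), with a symbol for each structure. The 4 libraries of BBB032 lie between 116% and 182% and the 2 of BBB036 between 115% and 166%, while the libraries of the other preparations lie between 22.7% and 113%.

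The difference between preparations was tested in the 22 P0D7 libraries outside cortex, with the structure as a covariate. Since these 8 preparations also gave the cortical libraries, and the high cortical libraries of BBB032 and BBB036 raised the means that chose the members, this test is not independent of the choice. By edgeR's quasi-likelihood F test with Benjamini-Hochberg adjustment over the 11954 genes tested, 237 of the 252 members differed between preparations at an adjusted p of at most 0.05, against 64.4% of all genes tested. The span between the highest and the lowest preparation was 1.95 on the log2 scale in the median member and 0.72 in the median gene. BBB032 was the highest preparation for 142 members and BBB036 for 80, against 15.6% and 14.5% of all genes. The median member lay 1.12 above its mean over preparations in BBB032 and 1.00 above it in BBB036, which had 1 library here, and between -0.55 and 0.09 in the other 6 (log2). Without the 3 libraries of BBB032 the count dropped to 49 of 252 members, against 37.2% of all genes, and without brainstem replicate 6 alone, which is from this preparation, to 144, against 51.4% of all genes. Leaving out any other preparation gave 225 to 241 calls, against 5909 of 11829 to 8019 of 11872 genes in all. Of the named genes, ENSMFAG00000041485 differed between preparations (adjusted p = 0.0061 by edgeR), as did ENSMFAG00000043076 (adjusted p = 0.0031). For ENSMFAG00000032813 and ENSMFAG00000028248 the adjusted p was 0.059 and 0.053 by edgeR, and 0.026 and 0.043 by limma on FPKM.

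All 4 other structures expressed most of the members after 7 days. At least 2 FPKM was reached by 221 members in brainstem, 238 in hippocampus, 234 in striatum and 222 in cerebellum. Mean levels were mostly below those of cortex, but the choice by cortical means favours cortex, and no test was made. The median member was at 58.2% of cortex in brainstem, 77.6% in hippocampus, 65.5% in striatum and 60.6% in cerebellum, and the median expressed gene at 98.5% to 102%. Within preparations the brainstem library was below the cortical one in all 6, with a median ratio of 38.2% (BBB029) to 84.1% (BBB032) and 203 to 241 members lower, whereas the order of the other structures and cortex was not fixed. In hippocampus the median ratio to cortex ran from 53.0% (BBB031) to 125% (BBB030) and in striatum from 29.3% (BBB029) to 118% (BBB035). The 2 cerebellum libraries were at 23.2% (BBB029) and 178% (BBB035) of the cortical library of their preparation, on opposite sides of it.

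Few members, and few genes in all, were called between the 4 structures outside cortex. A gene was called at an adjusted p of at most 0.05 and a fold of at least 1.5. In the edgeR fit without the preparation, 0 members and 0 genes in all (0.0%) were called for brainstem against hippocampus, brainstem against striatum, striatum against hippocampus and cerebellum against brainstem. At an unadjusted p under 0.05 these pairs had 11, 1, 5 and 9 of the 252 members and 1409, 133, 638 and 1652 of the 11954 genes, and DESeq2 called 1 (0.0502% of all genes), 0 (0.0%), 0 (0.0418%) and 2 (1.58%). For cerebellum against hippocampus 2 members were called (0.686% of all genes) and for cerebellum against striatum 1 (0.259%), where DESeq2 called 4 (3.25%) and 2 (1.74%). Without cerebellum replicate 1 edgeR called 0 members in either. The codes pair the samples, and with the preparation added as a block edgeR called 7 members for brainstem against hippocampus (2.62% of all genes), 0 for brainstem against striatum (0.0%), 1 for striatum against hippocampus (0.0251%), 7 for cerebellum against brainstem (5.96%), 8 for cerebellum against hippocampus (4.51%) and 10 for cerebellum against striatum (6.08%). These counts depended on single libraries. With the block, 56 members (7.03% of all genes) were called for brainstem against hippocampus without hippocampus replicate 7, and 54 (9.12% of all genes) for cerebellum against hippocampus without cerebellum replicate 2.

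The fitted differences of the members leaned to one side in brainstem and in striatum against hippocampus, though few members were called. Not all pairs did so: for cerebellum against brainstem without the block the median log2 difference was 0.06, with 145 members above 0. For brainstem against hippocampus the median log2 difference of the members was -0.40 and 22 of 252 were above 0, with a median of 0.01 over all genes. With the block the median was -0.50 and 19 were above 0. The size of this lean depended on single libraries of BBB032. In the fit with no block it was -0.11, with 69 above 0, without hippocampus replicate 6. It was -0.92, with 18 above 0, without brainstem replicate 6. The median member level was lower in the brainstem library than in the hippocampus library of each of the 6 preparations that had both, from 33.4% and 54.5% in BBB027 to 150% and 162% in BBB032. For striatum against hippocampus the median was -0.22 with 28 members above 0, and -0.54 with 21 above 0 with the block. Its direction without the block rested on 1 library. Without hippocampus replicate 6, from BBB032, the median was 0.06 with 157 members above 0. Without striatum replicate 5, also from BBB032, it was -0.40 with 18 above 0. There the libraries of BBB027 and BBB035 went the other way, at 63.3% and 61.2% in striatum and 54.5% and 46.6% in hippocampus. For brainstem against striatum the median was -0.16 without the block and 0.02 with it, so that its direction was not settled. These medians describe members that move together across libraries and carry no test.

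ENSMFAG00000028248 was the member called for cerebellum in both comparisons. Its FPKM was 704 and 76.0 in the 2 cerebellum libraries, and the brainstem libraries held 30.3 to 49.9 around a median of 37.7. In hippocampus its median was 46.2 (lowest 19.3, highest 144) and in striatum 30.5 (lowest 9.87, highest 72.1). The difference was 2.77 ± 0.60 (SE) on the log2 scale from hippocampus (adjusted p = 0.036 by edgeR) and 3.29 ± 0.59 (SE) from striatum (adjusted p = 0.026 by edgeR). With the preparation as a block the log2 differences were 2.33 (adjusted p = 0.022) and 2.88 (adjusted p = 0.0089). The second cerebellum library lay within the hippocampus range but above all brainstem and striatum libraries. In its own preparation, BBB035, it stood at 76.0 FPKM against 19.3 FPKM in hippocampus and 30.5 FPKM in striatum. The first, at 704 FPKM and from BBB029, was far above every other library. BBB029 also gave the highest cortical P0D7 library (242 FPKM) and the highest hippocampus library (144 FPKM). Its brainstem and striatum libraries, at 47.6 and 28.3 FPKM, were not the highest of their groups. From brainstem the difference was 3.28 ± 0.62 (SE), which was not called without the block (adjusted p = 0.051 by edgeR) and was called with it, at 2.81 (adjusted p = 0.017). In the other 3 named genes no pair of structures was called. Their cerebellum libraries fell within the range of at least 1 other structure outside cortex, except 1 library of ENSMFAG00000043076 at 102 FPKM.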

How the data were processed

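RNA of 44 libraries was sequenced in read pairs after ribosomal depletion with a directional kit. According to the study's methods, the authors removed ribosomal, low-quality and short reads, aligned the rest with the Omicsoft aligner to a Washington University assembly and used the Ensembl gene model. The authors deposited estimated counts of read pairs, not normalized (1.45% of the values are not whole, 4338 of them by more than 0.01), and FPKM values. The libraries held 8600889 to 24450445 counts, and read pairs carry no molecular identifiers.

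FPKM gave the members, levels and filters. Counts were rounded and tested in edgeR 4.0.16 (TMM, quasi-likelihood F test), with DESeq2 1.42.0 and limma 3.58.1 on log2(FPKM + 1) as alternatives, on genes that reached 1 FPKM in 3 or more of the 22 libraries. Lengths were computed from counts and FPKM. All libraries of a group differed by more than the sampling noise. Libraries of the same code deviated together in all 17 pairs between brainstem, hippocampus and striatum (r from 0.240 to 0.846), above the limit of 0.1 for pairing, while cerebellum was not checked.

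Groups came from the labels. The members, the lists and the tests were chosen with earlier results of these data known. Since no identifier had a symbol, the named genes are the 2 members with the largest ratio to P0D0 and the 2 others with the largest ratio to P1D7, among those with at least 10 FPKM at P0D7 and a sum of 4 counts in the lower fraction, and planned marker lists were not used. The fits were tested on simulated data.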

Additional observations from a re-analysis of the deposited data

Results flagged for a closer look

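In groups of 4 to 10 libraries, a highest or lowest library was sought whose gap to the next is large for the group's range. Chance meets this criterion in about 1 of 20 groups if the values are normally distributed. The values were not log-transformed and the groups share libraries, so that this rate may not hold here. Of 30 groups tested (the median member level and the 4 named genes in 6 groups each), 6 met the criterion. The median member level of brainstem replicate 6, at 150% of the cortical P0D7 mean, and of hippocampus replicate 6, at 162%, stood above the other libraries of their structures, and both are from BBB032. ENSMFAG00000041485 had 202 FPKM in striatum replicate 7, from BBB036, far above the other striatum libraries. ENSMFAG00000028248 had 1.19 FPKM in P1D7 replicate 5 and 144 FPKM in hippocampus replicate 3, each the highest of its group. ENSMFAG00000043076 had 13.3 FPKM in striatum replicate 1, the lowest of its group.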

How the results depend on the processing

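The number of members was 400 with a ratio to P0D0 of 2, and 82 with a ratio of 8 to P0D0 together with a ratio of 4 to P1D7. Leaving out single libraries gave 225 to 284 members, 157 to 184 members without overlap, and 144 to 245 that differed between preparations. The fits with 144 and 245 called 51.4% and 67.4% of all genes. Without the 3 cortical P0D7 libraries with the lowest median member level, an alternative chosen after seeing the data, 217 members had no overlap. Leaving out libraries can only raise this count, and the same count over all genes was not made for these settings. Without BBB032, 49 members (19.4%) differed between preparations, a lower share than the 37.2% of all genes.

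With the preparation as a block, members called were 7 for brainstem against hippocampus (2.62% of all genes) and 1 for striatum against hippocampus (0.0251%). They were 7, 8 and 10 for cerebellum against brainstem, hippocampus and striatum (5.96%, 4.51% and 6.08% of all genes). DESeq2 called 1 for brainstem against hippocampus (0.0502%) and 2, 4 and 2 for these cerebellum pairs (1.58%, 3.25% and 1.74%). Cerebellum against brainstem gave 1 with library size alone (0.109%) and 1 with all genes that had a count (0.0319%). Limma gave 1 and 0 for cerebellum against hippocampus and striatum (0.452% and 0.0669% of all genes). A fit of the pair alone gave 0 and 0 (0% of all genes in both). The cause of these changes was not tested. Leaving out single libraries gave 0 to 0 in the 3 pairs without cerebellum and 0 to 3, 0 to 4 and 0 to 4 in the others (0 to 444, 0 to 575 and 0 to 522 of all genes), with 0 in all 3 without cerebellum replicate 1. With the block, and chosen after seeing the data, it gave 1 to 56, 0 to 0 and 0 to 7 for brainstem against hippocampus, brainstem against striatum and striatum against hippocampus, and 0 to 24, 1 to 54 and 0 to 21 for cerebellum against brainstem, hippocampus and striatum. Over all genes these fits called 3 to 838, 0 to 0, 1 to 264, 7 to 1319, 42 to 1089 and 22 to 1333. The median level relative to cortex was 39.4% to 63.4% in brainstem, 63.1% to 82.6% in hippocampus, 56.8% to 72.5% in striatum and 24.5% to 93.8% in cerebellum without single libraries. For the named genes the block changed only the call of ENSMFAG00000028248 in cerebellum against brainstem (adjusted p = 0.017 in place of 0.051). With 2 cerebellum libraries, and 7 members at 4 or fewer counts over P0D0, depth and number limit these values.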
